A study of Mus musculus with 8 samples.

Results

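The 90 genes described here encode the nuclear subunits of the mitochondrial respiratory chain and of ATP synthase, with the complex I assembly factors Ndufaf1 to Ndufaf8. They were chosen by symbol from the 20888 rows of the deposited table: protein-coding rows starting with Nduf, Uqcr, Cox4, Cox5, Cox6, Cox7, Cox8 or Atp5, and Sdha, Sdhb, Sdhc, Sdhd and Cyc1. Complex I holds 38 of them, its assembly factors 8, complex II 4, complex III 9, complex IV 14 and complex V, the ATP synthase, 17. RNA-seq was measured in 8 libraries of leukaemic blasts, sorted from the blood of mice with T-ALL, an acute leukaemia of immature T cells. In 4 libraries the genotype was homozygous mutant for Kdm6b, a histone demethylase gene, and in 4 control libraries Kdm6b was wild type. Both groups carry the Vav-CRE transgene, whose Vav promoter drives recombination in blood-forming cells. The sources used here give neither the age of the mice nor how the leukaemia was started, and do not say whether replicates are different mice. P-values thus reflect only the spread among the 8 libraries, and that spread may be technical.

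Complexes I and II pass electrons from NADH and succinate to coenzyme Q, complex III passes them on to cytochrome c, and complex IV reduces oxygen. Complexes I, III and IV pump protons out of the mitochondrial matrix, and ATP synthase uses the return flow to make ATP. Most subunits are encoded in the nucleus, and mitochondrial DNA encodes part of every complex except complex II. In dividing T cells and leukaemic blasts the chain also supports the making of aspartate and nucleotides.

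Estimated depths ran from 14018070 to 18243930 reads in the knockout-labelled libraries and from 18262980 to 22070960 reads in the controls. Kdm6b was at 587 ± 92.2 CPM (reads of a gene, scaled to the same total in every library) in the knockout-labelled libraries and 514 ± 135 CPM in the controls (SD, n = 4 each). Its log2 change was 0.22 with a 95% interval from -0.23 to 0.67, and since exons outside a deletion still give reads, this gene-level value is no check of the label or the deletion. Xist was at 264 to 455 CPM in the knockout-labelled libraries and at most 0.831 CPM in the controls, while Y-linked Ddx3y was at most 0.548 CPM in the knockout-labelled libraries and at least 117 CPM in the controls, so sex and genotype cannot be told apart. All 9 genes listed as markers of T-ALL blasts were detected, with sums of 19218 to 23134 CPM in the knockout-labelled libraries and 16334 to 20578 CPM in the controls. The list was not built to tell blasts from other T cells, so their detection is no check of blast identity. Of the 9, 4 were higher in every knockout-labelled library than in every control: Cd3d, Cd3e, Cd3g and Trbc2. Over all tested genes, 13.2% did not overlap between the groups in either direction. In the test described below 0 of the 9 were called. The library numbered 4 stood apart from the other 3 of its group in both groups for the genes described here, and results are therefore also given without both of these libraries, a choice made after seeing the data.

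Stretches of 30 bases from 7 promoters are shown because they hold the short cores of the factors best known for respiratory chain promoters: NRF1, the ETS factor GABP (NRF2) and YY1. Capitals mark the matched letters, which are GCGCATGC for NRF1, CCGGAAG for ETS and AAGATGGC for YY1, searched on both strands, so that GCATGCGC, CTTCCGG and GCCATCTT are the same cores read from the other strand. The sequences run 5′ to 3′ on the strand of the gene and come from RefSeq on GRCm38.p6.
Atp5k: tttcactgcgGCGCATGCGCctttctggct
Ndufa11: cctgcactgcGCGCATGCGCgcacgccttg
Sdhb: agcccagtggGCATGCGCcctacgggccgc
Sdhd: cgtctcctgcCTTCCGGttcacgcttcagg
Cox6b1: cctctcgcagCTTCCGGccagtcggaattc
Ndufa3: cgccaagaacAAGATGGCcgggagtaagta
Ndufs7: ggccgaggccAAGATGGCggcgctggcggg

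The first 3 carry the NRF1 core, starting 50 bases before the RefSeq gene start in Atp5k (chr5:108434430-108434459, minus strand), 60 in Ndufa11 (chr17:56717692-56717721, plus strand) and 54 in Sdhb (chr4:140961207-140961236, plus strand). In Atp5k and Ndufa11 the core and its reverse complement overlap, which gives the longer run of capitals. Sdhd (chr9:50603876-50603905, minus strand) and Cox6b1 (chr7:30626123-30626152, minus strand) carry the ETS core, 46 and 28 bases before the start. The YY1 core of Ndufa3 (chr7:3617385-3617414, plus strand) and of Ndufs7 (chr10:80249463-80249492, plus strand) starts 22 and 24 bases after the gene start. Promoter windows from 250 bases before to 50 after the start were found for 75 of the 90 genes. The NRF1 core was in at least 1 window of 16% of these genes, against 6.34% of tested genes and 3.05% of all genes with a window. The YY1 core was in 14.7%, against 5.64% and 3.19%. The ETS core was in 25.3%, against 22% and 9.93%. The window of Uqcrfs1, the gene with the lowest p below, holds none of the 3. A match describes letters only. In GENCODE vM21 the stretches of Sdhb, Ndufa3 and Ndufs7 lie wholly inside the annotated gene, those of Atp5k and Cox6b1 in part, and those of Ndufa11 and Sdhd outside it.

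None of the respiratory chain and ATP synthase genes was called different between knockout-labelled and control libraries, and their changes were small in both directions. Of 89 tested members, limma on log2(CPM + 1) with Benjamini-Hochberg adjustment over all genes called 0 at an adjusted p below 0.05, against 488 of 13840 genes (3.53%) in the whole table. At an unadjusted p below 0.05 there were 6 members, 1 higher and 5 lower in the knockout-labelled libraries, which is 6.74% of members against 19.3% of all tested genes. The 4 libraries of each group did not overlap for 6 members, all lower in the knockout-labelled libraries, against 13.2% of all tested genes in either direction. The log2 change was positive for 45 members and negative for 44. Its median was 0.002, beside -0.035 over all tested genes. It ran from -0.43 to 0.43, and 0 members passed 0.5 in size, against 2221 tested genes (16%). The 95% intervals of single members reached from -0.96 to 0.86, so the lack of calls does not show that levels were equal. In bulk RNA, fewer cells of a type and less RNA per cell cannot be told apart.

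The summed level of the 90 genes was 10709, 10577, 10827 and 13930 CPM in knockout-labelled replicates 1 to 4, against 11495, 10653, 10852 and 15025 CPM in control replicates 1 to 4. Replicate 4 was the highest in each group, and the other libraries overlapped. The sums made up 1.15% of all reads in the knockout-labelled libraries and 1.2% in the controls, a ratio of means of 0.959, or 0.973 without both libraries numbered 4. None of the 90 genes stands in the authors' deposited table of 218 differing genes. With single libraries left out, genes called in the whole table numbered 150, 81, 361 and 170 without knockout-labelled replicates 1 to 4. They numbered 96, 557, 178 and 670 without control replicates 1 to 4, each out of 13840 tested genes. With all 8 libraries there were 488, and 0 members were called in each of these fits. Array weights raised the count for all genes to 1313 (9.49%) and called 2 members (2.25%), Sdhd and Uqcrfs1. Without both libraries numbered 4 the calls were Sdhd, Uqcrfs1 and Ndufb8, all lower in the knockout-labelled libraries. These are 3.37% of members, against 713 genes (5.15%) of the whole table in the same fit.

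**Figure D1:**
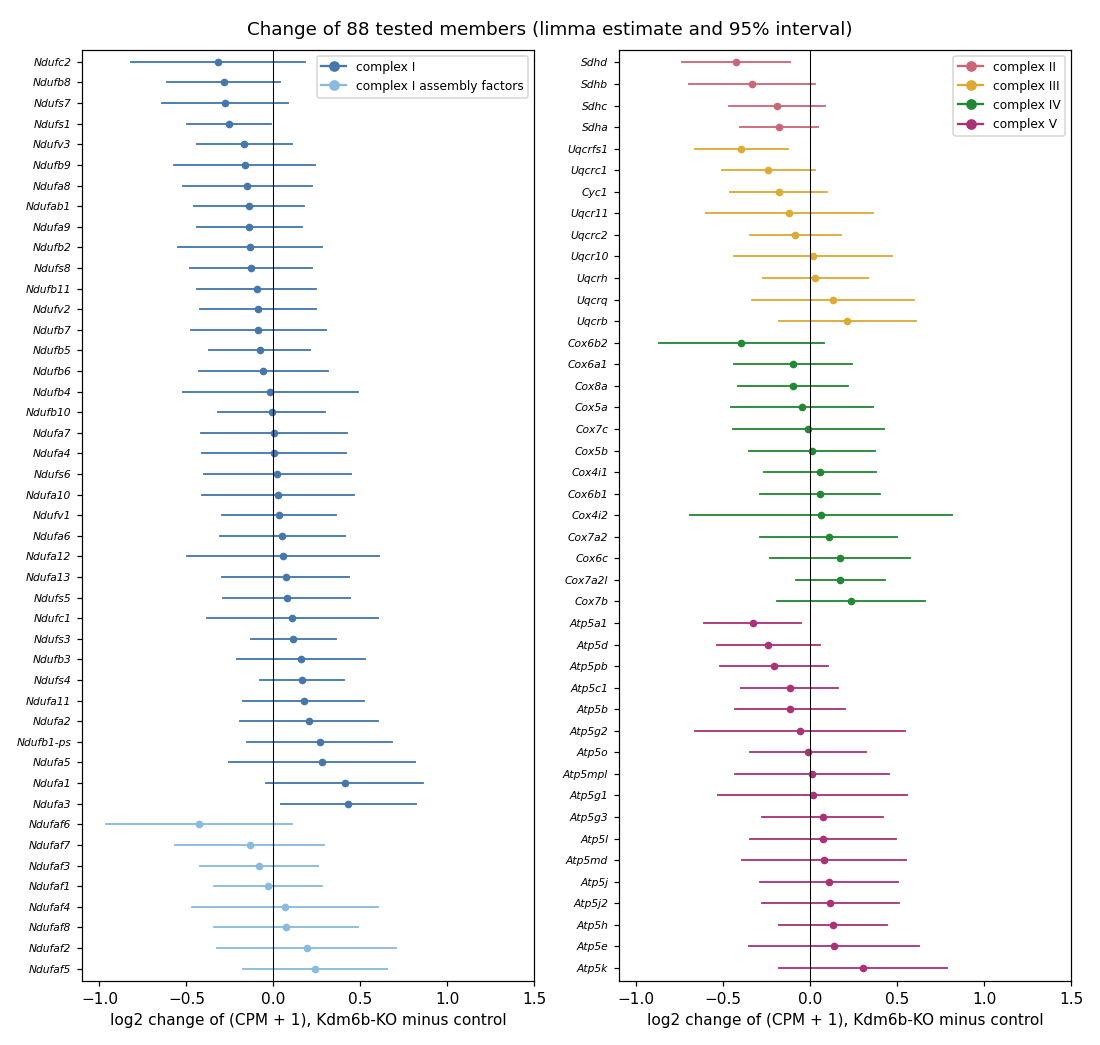
Log2 change of (CPM + 1), Kdm6b-KO minus control, for 88 of the 89 tested members, with the limma estimate as a point and the 95% interval as a line, coloured by complex and ordered by change within each. All 4 complex II genes lie left of 0, while the other complexes straddle it, and the points stay between -0.43 and 0.43.

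Complex II, succinate dehydrogenase, was the only complex whose subunit genes all had negative log2 changes, though 0 of 4 were called. It oxidises succinate in the tricarboxylic acid cycle and feeds the electrons into coenzyme Q. Sdhd encodes a membrane anchor subunit (chromosome 9, 50596357 to 50603812, mm10). Sdhd was at 94.4, 96.1, 111 and 116 CPM in knockout-labelled replicates 1 to 4, against 131, 128, 127 and 183 CPM in control replicates 1 to 4. All knockout-labelled libraries were below all controls. The log2 change of Sdhd was -0.43 ± 0.14 (SE, limma adjusted p = 0.124), and -0.36 with an adjusted p of 0.0477 without both libraries numbered 4. Over the 18 alternative settings its adjusted p ran from 0.0403 to 0.279.

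Sdha encodes the flavoprotein that binds succinate (chromosome 13, 74322254 to 74350280). It was at 295, 298, 308 and 289 CPM in knockout-labelled replicates 1 to 4, against 334, 321, 323 and 375 CPM in control replicates 1 to 4. The groups did not overlap here either, with a log2 change of -0.18 ± 0.10 (adjusted p = 0.355). Sdhb encodes the iron-sulphur subunit (chromosome 4, 140961203 to 140979193). Its levels were 136, 131, 148 and 193 CPM in knockout-labelled replicates 1 to 4, against 181, 165, 171 and 252 CPM in control replicates 1 to 4, so knockout-labelled replicate 4 lay above 3 of the controls. Its log2 change was -0.34 ± 0.16 (adjusted p = 0.293). Sdhc encodes the other membrane anchor (chromosome 1, 171127165 to 171150603). It was at 79.4, 82.1, 87.2 and 97.7 CPM in knockout-labelled replicates 1 to 4, against 94.2, 92.7, 90.7 and 120 CPM in control replicates 1 to 4, again with replicate 4 of the knockout-labelled group inside the control range, and a log2 change of -0.19 ± 0.13 (adjusted p = 0.440).

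The 4 complex II genes summed to 604, 607, 654 and 697 CPM in knockout-labelled replicates 1 to 4, against 740, 707, 712 and 929 CPM in control replicates 1 to 4. The sums did not overlap, with a ratio of means of 0.83, or 0.864 without both libraries numbered 4. The median log2 change was -0.26, and -0.24 without those libraries. It stayed between -0.35 and -0.16 with each single library left out. Per kilobase of transcript the mean levels over the 8 libraries were 151 CPM for Sdhb, 110 for Sdha, 100 for Sdhd and 29.3 for Sdhc, whose transcript model is the longest of the 4 at 3171 bases.

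**Figure D2:**
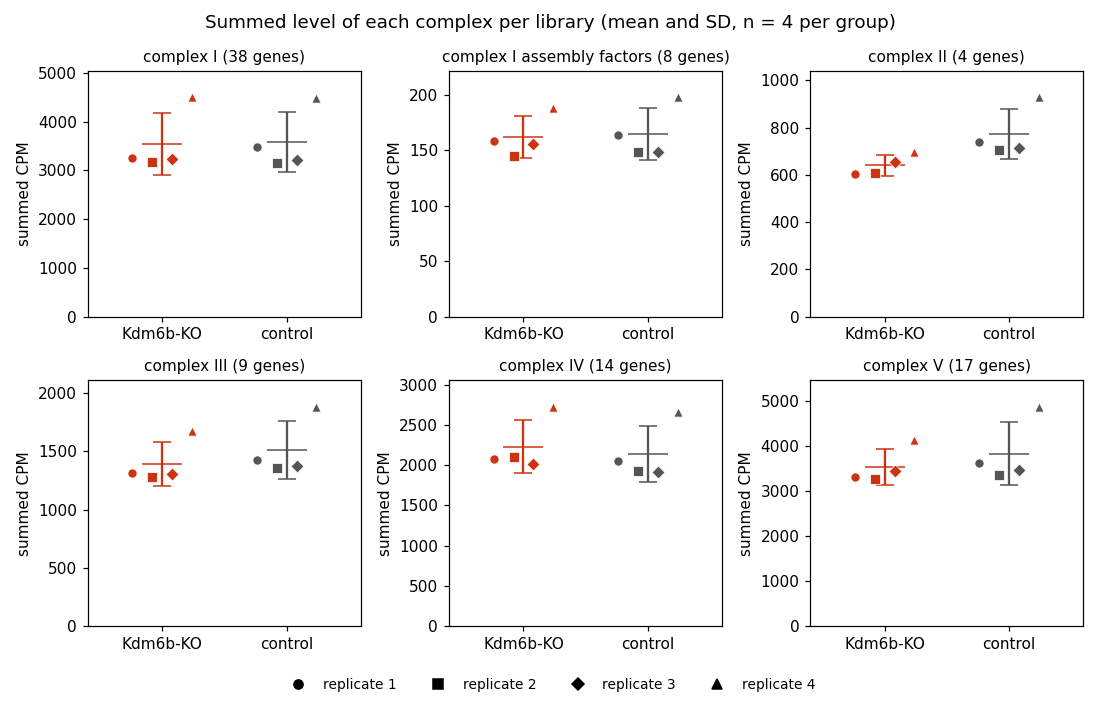
Summed CPM of the genes of each complex in every library, Kdm6b-KO left of control, with the mean and SD over 4 libraries; the marker gives the replicate number. Complex II is the only panel whose groups do not overlap (604 to 697 CPM in Kdm6b-KO, 707 to 929 CPM in control), and replicate 4 is the highest point of its group in every panel.

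Within complex III the gene of the Rieske iron-sulphur protein, Uqcrfs1 (chromosome 13, 30540308 to 30545362), had the lowest p of all members. Uqcrfs1 was at 122, 122, 124 and 128 CPM in knockout-labelled replicates 1 to 4, against 148, 148, 160 and 203 CPM in control replicates 1 to 4. The knockout-labelled libraries lay close together and below every control. The log2 change of Uqcrfs1 was -0.40 ± 0.12 (limma adjusted p = 0.0994), with an adjusted p of 0.0489 without both libraries numbered 4 and a range from 0.0347 to 0.220 over the 18 alternative settings. Cyc1, which encodes the other nuclear redox subunit, cytochrome c1, had a log2 change of -0.18 ± 0.13. Uqcrc1, a core protein gene and the most abundant of the complex in CPM, was at 404 ± 44.7 CPM in the knockout-labelled libraries and 477 ± 46.7 CPM in the controls (SD, n = 4 each), a log2 change of -0.24 ± 0.12 (adjusted p = 0.304). Uqcrb, which encodes a small subunit, had the highest change, 0.21 ± 0.18 (adjusted p = 0.560), and 43.2% of its 50-base windows also occur in transcripts of other genes. The median over the 9 genes was -0.09, with 4 positive.

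In complex I, most nuclear genes of the catalytic core had negative log2 changes, 0 were called, and the 31 accessory subunit genes were spread evenly around 0. Ndufs1, the gene of the largest subunit with several iron-sulphur clusters (chromosome 1, 63143596 to 63176833), was at 113, 90.3, 98.7 and 88.4 CPM in knockout-labelled replicates 1 to 4, against 117, 116, 115 and 117 CPM in control replicates 1 to 4. It was lower in every knockout-labelled library than in every control, by little where knockout-labelled replicate 1 met the lowest control. Its log2 change was -0.26 ± 0.11 (adjusted p = 0.231). Ndufb8, an accessory subunit gene of the membrane arm, was at 117, 118, 124 and 171 CPM in knockout-labelled replicates 1 to 4, against 158, 149, 143 and 194 CPM in control replicates 1 to 4. Its groups overlapped only through knockout-labelled replicate 4, and its log2 change was -0.29 ± 0.15 (adjusted p = 0.320), or -0.32 with an adjusted p of 0.0485 without both libraries numbered 4, in a range from 0.0485 to 0.54 over the settings. The core median was -0.13, with 2 of 7 positive, against 0.003 for the accessory genes, with 17 of 31 positive.

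Ndufa3, an accessory subunit gene (chromosome 7, 3617373 to 3620327), had the highest log2 change of all members and was the only 1 of the 6 at an unadjusted p below 0.05 that was higher. It was at 157, 155, 144 and 254 CPM in knockout-labelled replicates 1 to 4, against 137, 118, 111 and 148 CPM in control replicates 1 to 4. Knockout-labelled replicate 3 lay below control replicate 4, so the groups overlapped. The log2 change was 0.43 ± 0.18 (adjusted p = 0.214), and 0.32 without both libraries numbered 4. An exon of Ndufa3 overlaps Tfpt on the opposite strand, and the strand setting of the counting is not given in the sources used here.

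Ndufc2, an accessory gene of the membrane arm, had the lowest log2 change of complex I, -0.32 ± 0.23 (adjusted p = 0.479). It was at 66.3 ± 10.5 CPM in the knockout-labelled libraries and 86.7 ± 34.9 CPM in the controls (SD, n = 4 each), and the control value rested on replicate 4 at 137 CPM. Ndufb11 had the highest mean CPM of the complex, 166 ± 40.6 CPM in the knockout-labelled libraries and 175 ± 18.1 CPM in the controls. It is 1 of 3 members on the X chromosome, with log2 changes of -0.10 for Ndufb11, 0.41 ± 0.21 for Ndufa1 (adjusted p = 0.301) and 0.23 for Cox7b. The X-linked members thus did not share a direction. The 8 assembly factor genes had a median of 0.018. Ndufaf6 was at 1.59 ± 0.758 CPM in the knockout-labelled libraries and 2.4 ± 0.419 CPM in the controls, the lowest change of the 8 at -0.43 ± 0.24 (adjusted p = 0.360). Ndufaf5, which encodes a hydroxylase that acts on a core subunit, had the highest at 0.24 ± 0.19 (adjusted p = 0.526). Ndufaf3 was the most abundant of the 8 in CPM, with a log2 change of -0.09.

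Complex IV, cytochrome c oxidase, had 13 tested genes, of which 0 were called, 0 were at an unadjusted p below 0.05 by limma, and 8 were positive, with a median of 0.05. Several of its subunits have paralogues with a tissue preference, and the blasts expressed the widely used forms. Per kilobase, Cox4i1 had the highest level of all 89 members with a transcript length, at 760 CPM, and its paralogue Cox4i2 was at 2.10 CPM. Cox4i1 was at 574, 500, 552 and 713 CPM in knockout-labelled replicates 1 to 4, against 522, 526, 511 and 692 CPM in control replicates 1 to 4, and the groups overlapped. Cox6b1 stood at 229 CPM per kilobase and Cox6b2, known from testis, at 9.09. Cox6b2 had the lowest log2 change of the complex, -0.40 ± 0.22 (adjusted p = 0.344), at a level of 4.17 ± 0.760 CPM in the knockout-labelled libraries and 5.89 ± 1.62 CPM in the controls. Cox7b, on the X chromosome, had the highest, 0.23 ± 0.19 (adjusted p = 0.550).

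Cox7a1, the form known from heart and skeletal muscle, was the member that failed the filter on low values. It was at 0.493, 0.214, 0.767 and 0.635 CPM in knockout-labelled replicates 1 to 4, against 0.274, 0.364, 0.314 and 0.498 CPM in control replicates 1 to 4. The level of 3 reads was 0.136 to 0.214 CPM over the libraries. Knockout-labelled replicate 2 stood at it, and the other libraries lay above it. The related genes Cox7a2, at 147 CPM per kilobase, and Cox7a2l, at 426 CPM per kilobase and second of all members, carried the expression of this family. Cox7a2l encodes a protein of respiratory supercomplexes and had a log2 change of 0.17 ± 0.12 (adjusted p = 0.458). Cox6a1, Cox8a and Ndufa4, a subunit gene named for complex I and since assigned to complex IV, had log2 changes of -0.10, -0.10 and 0.003. By its name, Ndufa4 is counted here with the accessory genes of complex I and not with complex IV.

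In ATP synthase, 1 of 17 genes did not overlap between the groups, against 13.2% of all tested genes. Atp5a1 encodes the alpha subunit of the catalytic F1 head. It was at 696, 674, 711 and 720 CPM in knockout-labelled replicates 1 to 4, against 851, 775, 850 and 1075 CPM in control replicates 1 to 4. All knockout-labelled libraries were below all controls, and the log2 change of Atp5a1 was -0.33 ± 0.13 (adjusted p = 0.186). An exon of Atp5a1 overlaps Haus1 on the opposite strand. Over the 5 genes of the F1 head the median was -0.12, with 1 positive, and over the 9 genes of the stalk and membrane part it was 0.08, with 7 positive. Atp5k, which encodes a small membrane subunit, had the highest change, 0.30 ± 0.22 (adjusted p = 0.495). Of the 3 genes that encode the same mature c subunit of the rotor ring, Atp5g3 was at 303 CPM per kilobase, Atp5g1 at 13.2 and Atp5g2 at 8.13. Their log2 changes were 0.07, 0.01 and -0.06, all well within their errors. All 50-base windows of Atp5g2 (100%) and 56.2% of those of Atp5g1 occur in transcripts of other genes, so their share of reads is uncertain.

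The libraries numbered 4 stood above the others of their group for most members. Knockout-labelled replicate 4 was the highest of its group for 79 of 89 tested members (88.8%), against 30.3% of all tested genes. Control replicate 4 was the highest of its group for 86 members (96.6%), against 34.9% of all tested genes. Both held for 77 members, or 86.5%, against 14.9%. The median log2 difference between replicate 4 and the mean of the other 3 was 0.46 for the members in the knockout-labelled group and 0.50 in the controls, beside -0.02 and -0.04 over all tested genes. In complexes III and V every gene was highest in both libraries numbered 4.

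**Figure D3:**
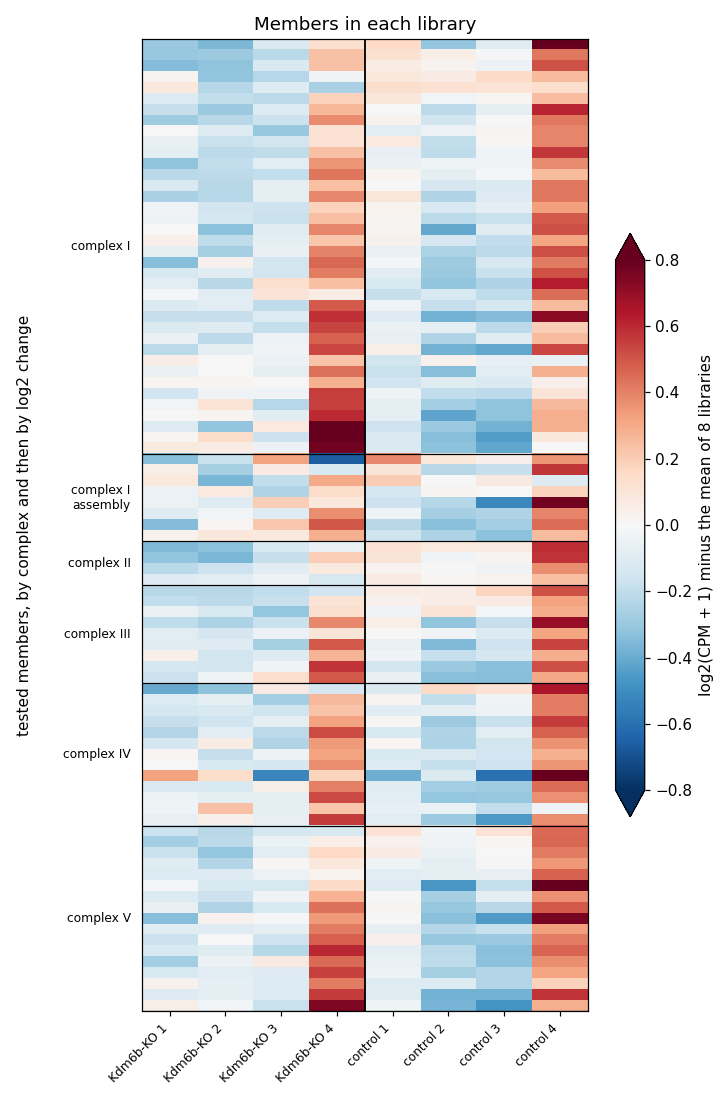
Log2(CPM + 1) of each tested member minus its mean over the 8 libraries, Kdm6b-KO libraries left of control libraries, with rows by complex and then by log2 change. The columns of Kdm6b-KO replicate 4 and control replicate 4 are red in most rows, and the complex II rows are blue in Kdm6b-KO replicates 1 and 2.

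The median over all members depended most on these libraries: it was -0.12 without knockout-labelled replicate 4, 0.14 without control replicate 4 and 0.02 without both. It was also -0.09 without control replicate 2 and -0.06 without control replicate 3, beside 0.002 with all 8 libraries. Genes of the cytosolic ribosome were also higher in the libraries numbered 4. The median difference of replicate 4 over 76 cytosolic ribosomal protein genes was 0.44 in the knockout-labelled group and 0.93 in the controls, and over 78 mitochondrial ribosomal protein genes it was 0.35 and 0.47. The same median over 9 markers of T-ALL blasts was 0.25 in the knockout-labelled group and -0.21 in the controls. Over 7 neutrophil or monocyte markers it was 0.78 and 0.49, over 6 erythroid markers 2.14 and -0.55, and over 2 tested NK cell markers 0.01 and 1.24. By this median, neutrophil or monocyte markers were higher in replicate 4 of both groups, but the 7 markers did not move together. Replicate 4 was the highest of its group for 4 of the 7 in the knockout-labelled group and 2 in the controls. Their sum in control replicate 4, 134 CPM, was below the mean of 155 CPM over the other controls. Erythroid markers were higher by this median in replicate 4 of the knockout-labelled group only. The sum of 6 erythroid markers was 162 to 946 CPM in the knockout-labelled libraries, highest in replicate 4, and 60.4 to 1255 CPM in the controls, highest in replicate 2. The sum of 7 neutrophil or monocyte markers was 94.5 to 301 CPM in the knockout-labelled libraries, highest in replicate 4, and 103 to 260 CPM in the controls, highest in replicate 2, with Elane at 0 in knockout-labelled replicate 3 and control replicate 2 and Mpo at 0 in knockout-labelled replicate 4. Of these 7 markers 0 were called between the groups. S100a9 was at 8.35 to 41.2 CPM in the knockout-labelled libraries and 1.36 to 6.71 CPM in the controls, without overlap, a log2 change of 1.72 ± 0.50 (adjusted p = 0.0864). S100a8 and Ngp also had positive log2 changes, 1.64 and 1.03, while those of Csf1r, Mpo, Elane and Lyz2 were negative, from -1.28 to -0.42. The sum of 3 NK cell markers was 51.6 to 133 CPM in the knockout-labelled libraries, highest in replicate 3, and 59.7 to 284 CPM in the controls, highest in replicate 4, with Ncr1 at 0 in knockout-labelled replicate 2. Of 5 B cell markers, Ighm was at 809 to 852 CPM in the knockout-labelled libraries and 630 to 799 CPM in the controls, without overlap, while Ms4a1 was at most 0.384 CPM in the knockout-labelled libraries and at most 0.156 CPM in the controls, and 4 platelet markers summed to at most 6.63 CPM in the knockout-labelled libraries and 3.28 CPM in the controls. The part of these cells in the difference of the libraries numbered 4 was not tested.

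Transcript length was related to both patterns. Members with a length in GENCODE vM21 (88 of 89 tested) had transcripts of 362 to 3632 bases, with a median of 863, against 2864 for all tested protein-coding genes with a length (n = 10741). Across the 88 genes, which share the same libraries and are not independent replicates, Spearman's rho between length and log2 change was -0.42, against -0.06 across the 10741 genes. With the longest principal transcript in place of the median one it was -0.37. Between length and the difference of knockout-labelled replicate 4 from the other 3 it was -0.63 for members and -0.49 for all genes, and for control replicate 4 it was -0.30 and -0.31. The 34 members under 700 bases had a median log2 change of 0.03 (22 positive), the 28 of 700 to below 1200 bases 0.06 (16 positive), and the 26 of 1200 bases or more -0.14 (6 positive). The medians over all tested protein-coding genes in these classes were 0.05, -0.01 and -0.06. The longest class has no upper bound, and its members ended at 3632 bases, while the median length over all these genes was 2864. Members and all genes were thus not matched for length within that class, nor for the values of rho. Sdha, Sdhc, Sdhd, Uqcrfs1, Atp5a1 and Ndufs1 all belong to the longest class, and Sdhb, at 1142 bases, lies just under it. Other members with lower values are shorter, among them Cox6b2 at 553 bases, Ndufb8 at 680, Ndufc2 at 683 and Ndufaf6 at 1082. The part of transcript length in the lower values of these genes was not tested.

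**Figure D4:**
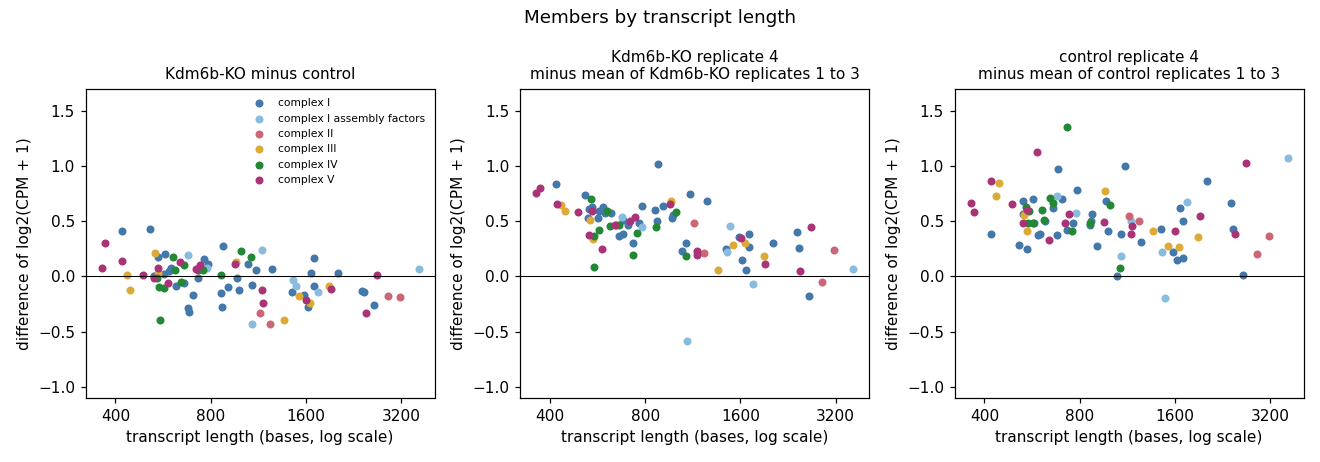
Transcript length in bases (log scale) of 88 tested members against the difference of log2(CPM + 1): Kdm6b-KO minus control at the left, replicate 4 minus the mean of replicates 1 to 3 for Kdm6b-KO in the middle and for control at the right, coloured by complex. In the middle panel all but 4 points lie above 0, with medians of 0.55 under 700 bases, 0.48 from 700 to below 1200 and 0.24 from 1200 bases; rho is -0.42, -0.63 and -0.30 from left to right.

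Some of these genes share sequence with other genes. Of 89 members with a transcript sequence, 17 share at least 20% of their 50-base windows with transcripts of other genes and 49 share none. Rows of 12 processed pseudogenes with matching names, left out of the members, summed to 119 ± 41.8 CPM in the knockout-labelled libraries and 100 ± 23.1 CPM in the controls (SD, n = 4 each). The pseudogene Ndufb4c was at 36.4 CPM in the knockout-labelled libraries and 32.7 CPM in the controls, above its parent Ndufb4, which was at 8.96 to 15.4 CPM in the knockout-labelled libraries and 8.43 to 16.9 CPM in the controls. How reads are divided between such copies is not known. Exons of 27 of 89 members (30.3%) overlap a gene on the opposite strand, against 32.4% of other tested protein-coding genes. A protein-coding gene starts head to head within 1000 bases of 23 members (25.8%), among them Timm8b beside Sdhd and Ccdc127 beside Sdha, against 11.3% of other tested protein-coding genes.

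Other mitochondrial genes and their regulators had mostly negative log2 changes, and few were called. In 10 further lists with 167 tested genes, 2 were called by limma, against 3.53% of all tested genes. Of the 167, 78 encode mitochondrial ribosomal proteins. At an unadjusted p below 0.05 there were 23 (13.8%), against 19.3% of all tested genes. A positive log2 change was seen for 24.6%, against 45.2% of all tested genes. Their median was -0.13, beside 0.002 for the respiratory chain and ATP synthase genes. Mrps6, which encodes a protein of the small mitochondrial ribosomal subunit, rose. It was at 69.1, 72.5, 47.8 and 108 CPM in knockout-labelled replicates 1 to 4, against 25.6, 40.1, 27.1 and 26.5 CPM in control replicates 1 to 4, a log2 change of 1.26 ± 0.23 (adjusted p = 0.0167). Cox15, which makes heme A for complex IV, fell. It was at 26.6, 25.5, 27.7 and 22.3 CPM in knockout-labelled replicates 1 to 4, against 42.6, 35.4, 40.7 and 35.5 CPM in control replicates 1 to 4, a log2 change of -0.58 ± 0.13 (adjusted p = 0.0398). Neither gene overlapped between the groups. Calls in these lists numbered 0 to 2 with single libraries left out. The libraries numbered 4 mattered here too. Control replicate 4 was the highest of its group for 92.3% of tricarboxylic acid cycle genes, and knockout-labelled replicate 4 for 30.8%. Without both, the ratio of summed means went from 0.904 to 0.955 for these genes and from 0.862 to 0.9 for ATP and phosphate carriers. It went from 0.934 to 0.944 for mitochondrial ribosomal protein genes and from 1.01 to 0.976 for complex IV assembly genes.

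Of 13 tricarboxylic acid cycle genes 0 were called and 12 were negative (median -0.15). At an unadjusted p below 0.05 there were 2 (15.4%), against 19.3% of all tested genes. Citrate synthase, Cs, was at 205, 219, 240 and 226 CPM in knockout-labelled replicates 1 to 4, against 260, 259, 240 and 314 CPM in control replicates 1 to 4. The groups touched without overlapping, at 240.1 CPM in knockout-labelled replicate 3 and 240.3 CPM in control replicate 3. All 6 genes of ATP, phosphate and outer membrane carriers were negative with 0 called and 2 (33.3%) at an unadjusted p below 0.05 (median -0.22). Among them was Slc25a4, an ADP/ATP carrier gene, at -0.48 ± 0.16 (adjusted p = 0.117). Of 78 mitochondrial ribosomal protein genes 1 was called, Mrps6, and 15 were positive (median -0.14). Of 21 complex IV assembly genes 1 was called, Cox15, and 5 (23.8%) were at an unadjusted p below 0.05 (median -0.10). The assembly genes of complex I outside the Ndufaf genes (9 tested, median -0.17), complex II (4, -0.01), complex III (6, 0.03) and complex V (4, -0.07) had 0 called and 0 at an unadjusted p below 0.05. The 14 genes of electron carriers and coenzyme Q synthesis had 0 called and 2 (14.3%) at an unadjusted p below 0.05 (median -0.17).

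Regulators of these genes are given last. Of 12 genes of mitochondrial transcription and its nuclear regulators, 0 were called (median -0.13). At an unadjusted p below 0.05 there were 3 (25%), against 19.3% of all tested genes. Polrmt, the mitochondrial RNA polymerase gene, was at 37.4, 31.8, 35.7 and 32.7 CPM in knockout-labelled replicates 1 to 4, against 44, 46, 51.3 and 47 CPM in control replicates 1 to 4, a log2 change of -0.44 ± 0.12 (adjusted p = 0.0697). Nrf1, whose protein binds the NRF1 core shown above, was at 156, 157, 162 and 147 CPM in knockout-labelled replicates 1 to 4, against 181, 185, 200 and 182 CPM in control replicates 1 to 4, a log2 change of -0.26 ± 0.10 (adjusted p = 0.172). Both were lower in every knockout-labelled library than in every control, without passing the adjusted threshold. Esrra went the other way, at 15.4 to 20.7 CPM in the knockout-labelled libraries and 8.11 to 15.0 CPM in the controls, without overlap. Its log2 change was 0.44 ± 0.21 (adjusted p = 0.267). Those of Gabpa, Yy1 and Tfam were -0.08, 0.02 and 0.05. Of the 12 genes, 4 had positive and 8 had negative log2 changes. The 13 protein-coding genes of mitochondrial DNA summed to 11580 ± 836 CPM in the knockout-labelled libraries and 10496 ± 654 CPM in the controls (SD, n = 4 each). The groups overlapped, at 10891 to 12643 CPM in the knockout-labelled libraries and 10057 to 11444 CPM in the controls. The ratio of means was 1.10, against 0.959 for the 90 nuclear genes, which include complex II and the assembly factors.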

How the data were processed

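RNA-seq was measured in 4 Kdm6b-KO and 4 control libraries of sorted mouse T-ALL blasts, grouped by the sample titles. RNA extraction used NucleoSpin RNA XS, and library preparation used SMARTer Ultra Low RNA, per the labels' protocols. STAR 2.7.3a, Partek 10.0.22.0524 and mm10 are named per the submitters' processing notes; the sources used here name no gene counter, strand setting or annotation. The authors deposited CPM for 20888 genes with 0.0001 added to each value, which was subtracted here. The authors' deposited list of 218 genes gives a signed linear fold (a score, control over knockout), used only to look for members.

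Depth was estimated from the steps between low CPM values. Between 70.5% and 73.2% of values came out as whole reads within 0.02 reads, which is too few to recover whole reads for a count model. The level of 3 reads, used as a floor, covers counting error only. Tests were run on the 13840 genes that reached 1 CPM in 4 or more of the 8 libraries, with limma 3.58.1 in R 4.3.3 on log2(CPM + 1), fitted by lmFit and trended eBayes, Kdm6b-KO minus control, two-sided, with Benjamini-Hochberg adjustment over all tested genes. This scale understates changes of low genes. The fit was tested on simulated data. Errors of levels are SD and errors of log2 changes are limma SE. Counts and medians of lists carry no test.

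Members and lists were chosen with earlier results of these data known. Genes were named by a rule: for each complex and the assembly factors, called members, the highest and lowest log2 change and the highest mean CPM; members of paralogue families; and all 4 complex II genes. Ndufs1, Ndufa1, Ndufb8 and Cyc1, and the list genes Cs, Slc25a4, Polrmt, Nrf1, Esrra, Gabpa, Yy1 and Tfam, were added after their values were seen. Some genes that enter the counts and sums are not reported singly here. Positions and lengths come from GENCODE vM21 (mm10), taking the median length of the principal transcripts, a choice made after seeing lengths. Settings compared were pseudocounts 0.1 and 5, no filter and a filter at 5 CPM, quantile and median-ratio scaling, array weights, eBayes without a trend, a replicate block, each library left out, and both libraries numbered 4 left out.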

Additional observations from a re-analysis of the deposited data

Results flagged for a closer look

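In 18 of 72 groups of 4 libraries looked at for the named genes and the sums, 1 library lay far from the other 3: its gap to the nearest of them, divided by the range of the group, passed Dixon's 95% critical value for 4 values. Chance flags about 1 in 20 independent groups of normally distributed values. The groups here share the same 8 libraries, and the sums hold the same genes, so that rate is no test of these counts. Over all tested members it was 37 of 178 groups. In all 18 the library was number 4 of its group, and the highest.

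Knockout-labelled replicate 4 stood apart for the sum of all members at 13930 CPM (10577 to 10827 in the other 3), and for the sums of complex I at 4504 CPM (3176 to 3250), complex III at 1678 CPM (1278 to 1310) and complex IV at 2727 CPM (2016 to 2107). Among genes it did so for Ndufb11 at 226.7 CPM (145 to 146), Ndufa3 at 254 CPM (144 to 157), Atp5g3 at 286.2 CPM (200 to 204), Uqcrc1 at 470.4 CPM (377 to 385), Cox7b at 122.8 CPM (79.4 to 85.6) and Cox8a at 146 CPM (111 to 115).

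Control replicate 4 stood apart for the sums of complex II at 929.1 CPM (707 to 740 in the other 3) and complex III at 1882 CPM (1357 to 1426). Among genes it did so for Sdhd at 182.6 CPM (127 to 131), Sdhc at 119.8 CPM (90.7 to 94.2), Uqcrc1 at 546.3 CPM (448 to 458), Cox4i1 at 691.6 CPM (511 to 526), Cox6b1 at 179.5 CPM (123 to 130) and Cox8a at 165.8 CPM (117 to 121).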

How the results depend on the processing

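Limits are the 4 libraries per group, whose origin is not given, the confounding of sex with genotype, the shallower knockout-labelled libraries and unknown read division between copies. Array weights gave 1313 genes and 2 members called, and 11 genes in the other mitochondrial lists; Sdhd was then at -0.354 and Uqcrfs1 at -0.324, past the threshold. Without both libraries numbered 4 (chosen after seeing the data), 713 genes (5.15%), 3 members (3.37%) and 5 list genes were called, with Sdhd at -0.357 and Uqcrfs1 at -0.308. The other lists, with 2 calls, had 1 with no filter, with quantile normalization and with eBayes without a trend, and 3 with a replicate block. In every other setting 0 members were called. Calls over all genes were 167 higher and 321 lower, against 188 and 237 with quantile normalization.

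With single libraries left out, calls ran from 81 to 670 over all genes, were 0 for members, and ran from 0 to 2 in the other lists. Directions reversed for Cox4i1 with quantile normalization (-0.007), for Atp5g2 with array weights (0.106) and without both libraries numbered 4 (0.162), and for Ndufa4 without them (-0.009). With single libraries left out, log2 changes that crossed 0 ran from -0.136 to 0.268 for Atp5g1, -0.224 to 0.223 for Atp5g2, -0.055 to 0.193 for Atp5g3, -0.045 to 0.157 for Cox4i1, -0.130 to 0.397 for Cox4i2, -0.206 to 0.018 for Cox6a1, -0.060 to 0.182 for Cox6b1, -0.011 to 0.272 for Cox7a2, -0.192 to 0.021 for Cox8a, -0.149 to 0.143 for Ndufa4 and -0.200 to 0.021 for Ndufaf3. The cause was not tested. Of the genes named by the rule, all 4 complex II genes, Uqcrfs1, Atp5a1, Cox6b2, Ndufaf6, Ndufb11, Ndufc2 and Uqcrc1 stayed negative in these fits. Ndufa3, Atp5k, Cox7b, Cox7a2l, Uqcrb and Ndufaf5 stayed positive.

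A replicate block by the number in the titles called 509 genes and 0 members, with 14 members at an unadjusted p below 0.05, against 6. Deviations of libraries with the same number correlated at 0.149, 0.0652, -0.102 and 0.176 for numbers 1 to 4, and not every library correlated best with its own number, so the numbers were not taken as pairs.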
